A study of Danio rerio with 4 samples.

Results

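The genes described here act in protein entry into the endoplasmic reticulum (ER) and in transport between the ER and the Golgi apparatus. They were taken by name from zebrafish RNA-seq tables: 65 of 29027 rows had a symbol of the signal recognition particle, the Sec61, TRAP or signal peptidase complexes, protein disulfide isomerases, the COPII or COPI coats, the p24 (TMED) cargo receptors or the KDEL receptors, or another sec-numbered symbol. The name rule itself used no measured value, but it was set with earlier results of these data known. All 65 passed the filter on low values. The libraries came from trunk and tail endothelial cells of embryos at 47 hours post fertilization that carried Tg(kdrl:EGFP) and Tg(lyve1:DsRed), sorted for both colours. The kdrl reporter marks endothelium and the lyve1 reporter its venous and lymphatic part. The tie1 Homo group held 2 libraries from homozygous tie1 mutants, taken from embryos that had blood flow. The tie1 WT/Het group held 2 libraries from their tie1+/? siblings, in which wild types and heterozygotes were not told apart. All embryos carried both transgenes. The labels used here give neither the mutant allele nor the number of embryos per library. They do not say whether replicates came from separate clutches. The p-values thus rest only on the spread between these libraries, which may be technical. That spread entered as a trend over all genes, so a p-value does not measure the spread of a single gene.

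Secreted and membrane proteins are recognised by the signal recognition particle as they leave the ribosome, pass into the ER through the Sec61 channel, lose their signal peptide to signal peptidase and form disulfide bonds with the help of protein disulfide isomerases. COPII vesicles carry folded cargo towards the Golgi, p24 proteins and other receptors load it, and COPI vesicles bring back escaped ER proteins bound to KDEL receptors. Endothelial cells use this route for adhesion molecules, growth factor receptors and matrix proteins. In zebrafish, mutants of copa, copb1 and copb2 are known for notochord defects, and mutants of sec23a and sec24d for defects of craniofacial cartilage.

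Values are TPM, a relative abundance that is scaled by transcript length and can be compared between genes of a library. The level of genes presumed to be silent in these cells differed between the groups. The median TPM of 331 sensory receptor and gamma crystallin genes was 8.38 and 11.1 in tie1 Homo replicates 1 and 2, against 2.26 and 3.66 in tie1 WT/Het replicates 1 and 2. Their 95th percentile, called the background limit below, was 13.8 and 18.8 TPM in tie1 Homo and 3.93 and 6.44 TPM in tie1 WT/Het. Over the limit of their library lay 16.9% and 10.6% of all rows in tie1 Homo, against 34.4% and 31.3% in tie1 WT/Het. Read depth is unknown, because TPM keeps none. The tie1 gene itself had 16.7 and 10.2 TPM in tie1 Homo, against 61.0 and 31.0 TPM in tie1 WT/Het (limma adjusted p = 0.0605). All 15 pan-endothelial markers found were over the limit in both tie1 WT/Het libraries, and 8 of them were over it in both tie1 Homo libraries.

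The early secretory genes were mostly lower in tie1 Homo. Of the 65 members, 46 had a negative log2 fold change and 19 fell at a limma adjusted p under 0.05, led by the KDEL receptors and several p24 and signal peptidase genes. The 19 are 29.2% of the members, and over all 28301 genes tested 4.43% were called lower. A further 7 members (10.8%) were called higher, against 44.6% of all genes, and each of the 7 stayed under the background limit of every library. The median log2 fold change was -1.30 over the members and 1.17 over all genes tested. All fold changes were computed from log2(TPM + 1), tie1 Homo over tie1 WT/Het, and are to be read beside that median of 1.17. The groups did not overlap and their mean log2 values differed by at least 2-fold for 35 members that were lower (53.8%, against 9.47% of all genes tested) and for 9 that were higher (13.8%, against 57.0%). The nearest libraries can still be close, as in tmed9 with 492 TPM in tie1 Homo replicate 1 and 507 TPM in tie1 WT/Het replicate 1. With quantile normalized values, with background subtraction or with median-of-ratios rescaling, limma called 0 members in either direction. In these fits 0 of all genes tested were called, so the absence of calls is not particular to the members. At an unadjusted p under 0.05, quantile normalization had 11 of 65 members lower (16.9%, against 6.46% of all genes tested), background subtraction 20 of 56 (35.7%, against 20.9%) and median-of-ratios rescaling 36 of 65 (55.4%, against 14.5%), each with 0 members higher. Background subtraction tested genes over the background limit in at least 1 library. Its count includes members over that limit in tie1 WT/Het alone, for which the filter favours a negative sign. The counts moved with single libraries, as did those over all genes. Lower calls numbered 21 without tie1 Homo replicate 1 (32.3%, against 6.23% of all genes), 6 without tie1 Homo replicate 2 (9.23%, against 2.92%), 3 without tie1 WT/Het replicate 1 (4.62%, against 0.233%) and 8 without tie1 WT/Het replicate 2 (12.3%, against 2.54%). Higher calls numbered 0 without tie1 Homo replicate 1, without tie1 Homo replicate 2 and without tie1 WT/Het replicate 1, where 6.46%, 1.84% and 1.88% of all genes were called higher. Without tie1 WT/Het replicate 2 there were 6 (9.23%), against 49.5% of all genes. In all fits with a group of 1 library, that library is assumed to vary like the others. The p-values of these fits thus do not measure the spread of that group.

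**Figure D1:**
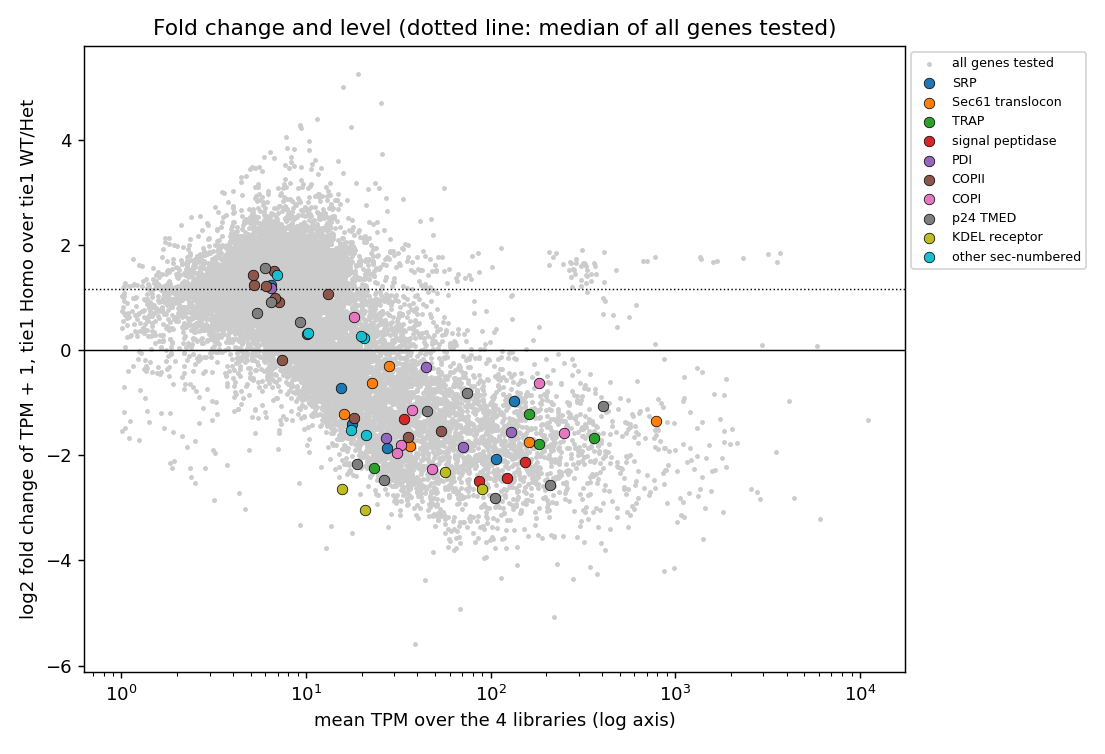
Log2 fold change of TPM + 1 (tie1 Homo over tie1 WT/Het) against the mean TPM of the 4 libraries on a log axis, with all genes tested in grey, the 65 members coloured by role and the median of all genes tested (1.17) dotted. Members with a mean of 50 TPM or more lie below 0, and most members with a mean under 10 TPM lie above it.

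The direction followed the level of the gene, among the members as among all genes. All 21 members with a mean of 50 TPM or more over the 4 libraries had a negative fold change, and 8 of them (38.1%) were called lower. In that class 93.1% of all genes tested were negative and 33.0% were called lower, with a median log2 fold change of -1.75 for members and -1.67 for all genes. Among genes with a mean of 10 to 50 TPM, 11 of 30 members (36.7%) and 10.3% of all genes were called lower, with medians of -1.36 and -0.19. Under 10 TPM, 0 of 14 members and 0.152% of all genes were called lower, and 7 members (50.0%) and 58.2% of all genes were called higher. Members and all genes were furthest apart in the middle class and close to each other in the most abundant one. No test was made of either gap. The counts by role below are to be read beside these shares.

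**Figure D2:**
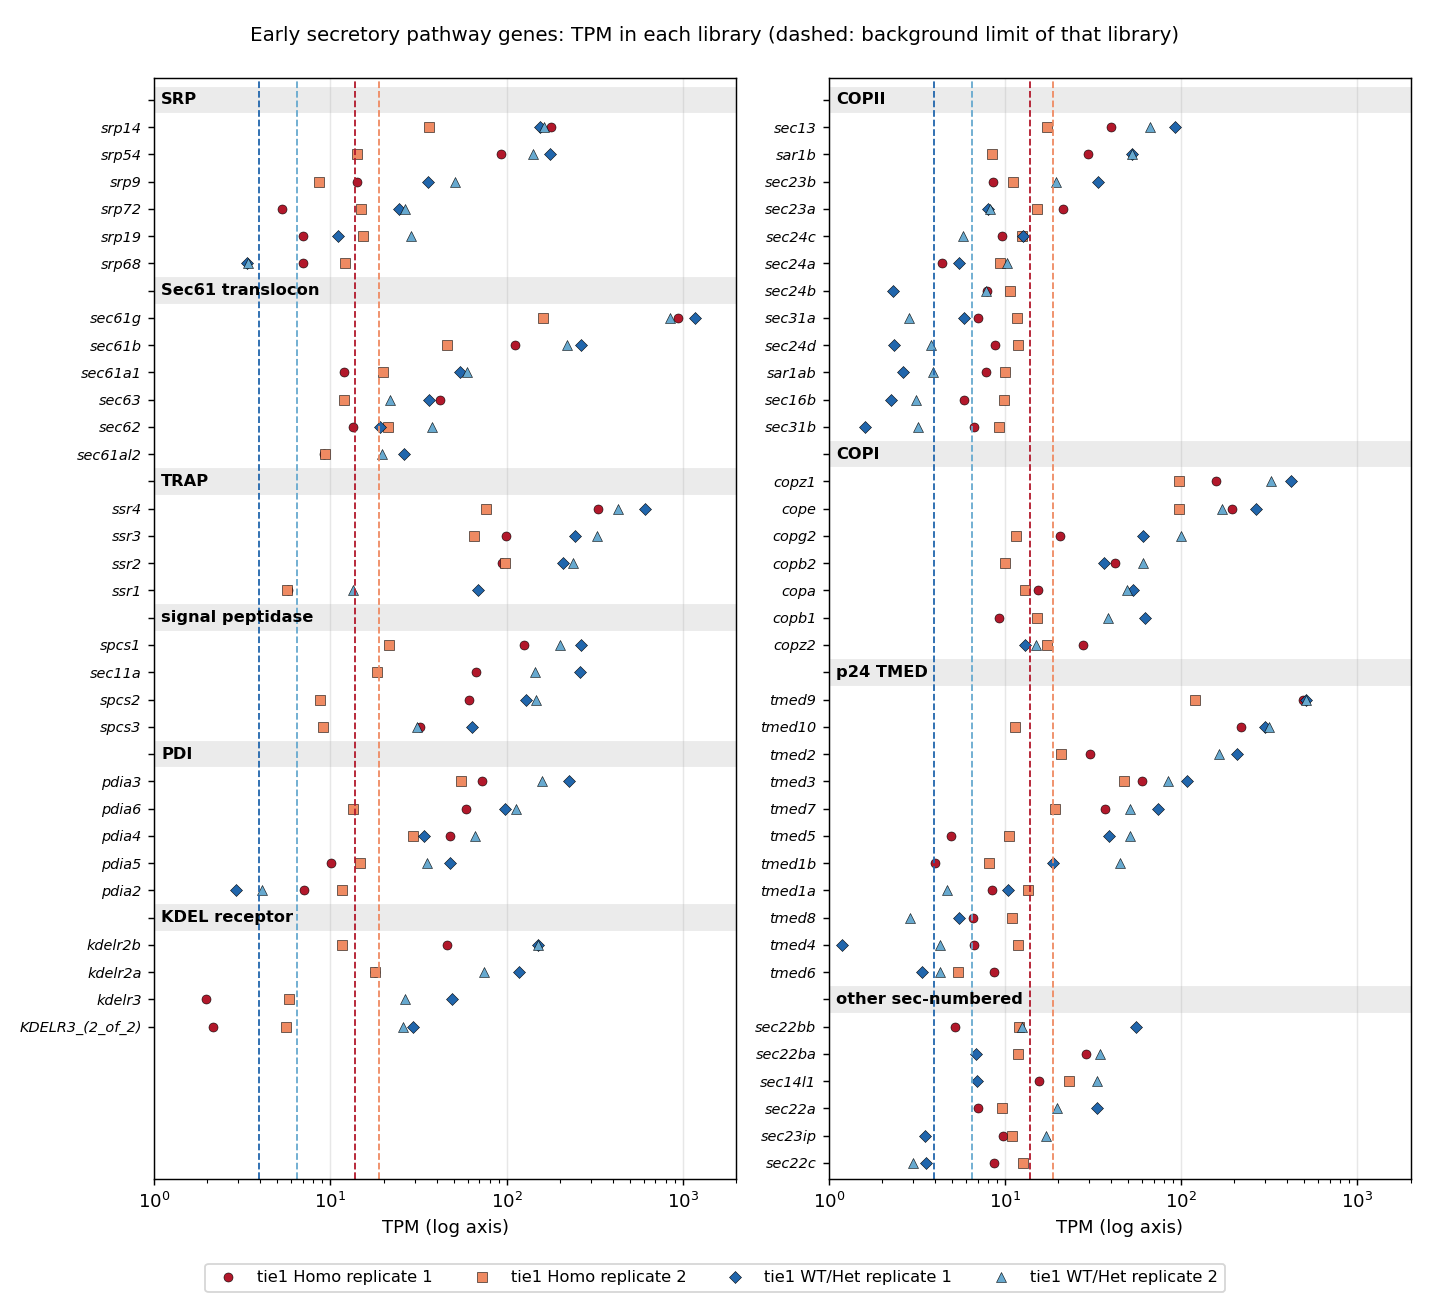
TPM of each of the 65 members in each of the 4 libraries on a log axis, grouped by role, with the background limit of each library dashed in its colour. The 4 KDEL receptor rows show both tie1 Homo libraries well below both tie1 WT/Het libraries, while 4 of the 12 COPII rows lie under the limit in every library.

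The KDEL receptors were the only role whose members were all called lower. These receptors bind escaped ER proteins in the Golgi and return them. The row kdelr2b had 45.7 and 11.7 TPM in tie1 Homo, against 151 and 151 TPM in tie1 WT/Het (log2 fold change -2.64, SE 0.89, limma adjusted p = 0.0196). For kdelr2a the values were 17.8 and 17.8 TPM in tie1 Homo and 117 and 74.1 TPM in tie1 WT/Het (-2.32, SE 0.85, limma adjusted p = 0.0248). Both tie1 Homo libraries lay several-fold below both tie1 WT/Het libraries in each of these genes. Lower still, kdelr3 had 1.96 and 5.82 TPM in tie1 Homo, against 49.2 and 26.6 TPM in tie1 WT/Het (-3.05, SE 0.66, limma adjusted p = 6.26e-04). A second row with this name, KDELR3_(2_of_2), had 2.14 and 5.57 TPM in tie1 Homo, against 29.4 and 25.7 TPM in tie1 WT/Het (-2.65, SE 0.64, limma adjusted p = 0.00242). Both kdelr3 rows were below the background median in both tie1 Homo libraries. How reads shared by near-identical copies were assigned is not given in the sources used here, so the split between these 2 rows is uncertain.

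Leaving out any 1 library left kdelr3 called, with limma adjusted p-values of 0.0308 without tie1 Homo replicate 1, 0.00145 without tie1 Homo replicate 2, 0.0048 without tie1 WT/Het replicate 1 and 2.22e-04 without tie1 WT/Het replicate 2. It was the only member of which this was true. The second kdelr3 row lost its call without tie1 Homo replicate 1 (0.0689), and kdelr2a without tie1 WT/Het replicate 1 (0.204). The call of kdelr2b held only without tie1 Homo replicate 1, and its adjusted p was 0.0942 without tie1 Homo replicate 2, 0.177 without tie1 WT/Het replicate 1 and 0.0691 without tie1 WT/Het replicate 2. All 4 rows had a negative fold change under median-of-ratios rescaling (median -3.91) and quantile normalization (median -2.65), with no adjusted p under 0.05 in either fit. After background subtraction kdelr2a and kdelr2b, each over the limit in tie1 Homo replicate 1, were at -3.34 and -4.23 (limma adjusted p = 0.131 and 0.214). Both kdelr3 rows passed that filter through tie1 WT/Het alone.

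Among the p24 proteins, which form hetero-oligomers that sort cargo between the ER and the Golgi, the members parted by level. Of 11 genes, 4 were called lower and 1 higher, and 7 had a negative fold change (10 under median-of-ratios rescaling, 8 after quantile normalization). The alpha-class gene tmed9, the most abundant, had 492 and 120 TPM in tie1 Homo, against 507 and 508 TPM in tie1 WT/Het (-1.06, SE 0.95, limma adjusted p = 0.328). Replicate 1 of tie1 Homo was thus close to the tie1 WT/Het libraries, and replicate 2 was not. Without tie1 Homo replicate 1 its log2 fold change was -2.07, and without tie1 Homo replicate 2 it was -0.04. A wider gap between the tie1 Homo libraries was seen in tmed10, the delta-class gene, with 217 and 11.3 TPM in tie1 Homo and 298 and 316 TPM in tie1 WT/Het (-2.57, SE 0.94, limma adjusted p = 0.0251). In replicate 2 its value was at the background median. Its log2 fold change was -0.5 without tie1 Homo replicate 2 (limma adjusted p = 0.417), and the call was also lost without tie1 WT/Het replicate 1 (0.242) or replicate 2 (0.171).

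The beta-class gene tmed2 was low in both tie1 Homo libraries, with 30.5 and 20.8 TPM, against 208 and 163 TPM in tie1 WT/Het (-2.82, SE 0.90, limma adjusted p = 0.0166). It held its call without either tie1 Homo library and lost it without tie1 WT/Het replicate 1 (0.181) or replicate 2 (0.052). The gamma-class genes tmed5 and tmed1b also fell (-2.47 and -2.16, limma adjusted p = 0.0122 and 0.0154), and neither was over the background limit in a tie1 Homo library. For tmed5 the call was lost without tie1 Homo replicate 1 (0.0693) and without tie1 WT/Het replicate 1 (0.0647), and for tmed1b without tie1 Homo replicate 1 (0.101) and tie1 WT/Het replicate 2 (0.0515). The gamma-class genes tmed3 and tmed7 stayed over the limit in all 4 libraries, with 59.6 and 47.2 TPM for tmed3 in tie1 Homo, against 107 and 83.7 TPM in tie1 WT/Het (limma adjusted p = 0.431). The row called higher, tmed4, had 6.69 and 11.9 TPM in tie1 Homo and 1.18 and 4.25 TPM in tie1 WT/Het, all under the limit. That call was lost without tie1 Homo replicate 1 (0.0783), tie1 Homo replicate 2 (0.328) or tie1 WT/Het replicate 1 (0.256).

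Signal peptidase genes formed the next lowest role, with a median log2 fold change of -2.28, 3 of 4 called lower and all 4 negative under each scaling tried. The 3 called genes averaged more than 50 TPM, a class in which 33.0% of all genes tested were called lower. The catalytic subunit gene sec11a had 67.1 and 18.4 TPM in tie1 Homo, against 262 and 145 TPM in tie1 WT/Het (-2.43, SE 0.92, limma adjusted p = 0.0276). The accessory subunit gene spcs1 had 125 and 21.5 TPM in tie1 Homo, against 263 and 202 TPM in tie1 WT/Het (-2.12, SE 0.94, limma adjusted p = 0.0486). For spcs2 the values were 61.1 and 8.68 TPM in tie1 Homo and 128 and 147 TPM in tie1 WT/Het (-2.49, SE 0.89, limma adjusted p = 0.0229). In all 3 genes tie1 Homo replicate 2 was the lowest library and tie1 Homo replicate 1 lay between it and tie1 WT/Het. Each of the 3 calls held without tie1 Homo replicate 1 alone, with adjusted p-values of 0.110 to 0.315 without tie1 Homo replicate 2, 0.180 to 0.354 without tie1 WT/Het replicate 1 and 0.0903 to 0.210 without tie1 WT/Het replicate 2. The fourth subunit gene, spcs3, had 32.1 and 9.06 TPM in tie1 Homo, against 63.9 and 30.8 TPM in tie1 WT/Het, and the groups overlapped (-1.32, limma adjusted p = 0.144).

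The translocon-associated protein (TRAP) complex, which binds Sec61 and assists entry of some signal peptides, kept 3 of its 4 subunit genes over the background limit in all libraries. The delta subunit gene ssr4 had 329 and 76.6 TPM in tie1 Homo, against 607 and 431 TPM in tie1 WT/Het (-1.68, limma adjusted p = 0.118). The gamma subunit gene ssr3 had 98.8 and 65.2 TPM in tie1 Homo, against 243 and 324 TPM in tie1 WT/Het (-1.79, limma adjusted p = 0.0946). The beta subunit gene ssr2 had 94.5 and 97.8 TPM in tie1 Homo, against 210 and 239 TPM in tie1 WT/Het (-1.21, limma adjusted p = 0.260). All 3 were lower in both tie1 Homo libraries without passing the test. Without tie1 Homo replicate 1, ssr4 and ssr3 were at -2.72 and -2.09, and without tie1 Homo replicate 2 they were at -0.63 and -1.50. The gene ssr2 was positive after quantile normalization (0.21). The alpha subunit gene ssr1 was called lower, with 5.73 and 5.68 TPM in tie1 Homo and 68.8 and 13.4 TPM in tie1 WT/Het (-2.24, SE 0.68, limma adjusted p = 0.0135). The value in tie1 WT/Het replicate 1 stood far above that in replicate 2, and without tie1 WT/Het replicate 1 the log2 fold change was -1.11 (limma adjusted p = 0.206). The call was also lost without tie1 Homo replicate 1 (0.053) and without tie1 Homo replicate 2 (0.113).

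The genes of the 3 Sec61 channel subunits kept the order gamma, beta, alpha by TPM in all 4 libraries. The gamma subunit gene sec61g, the most abundant member in all 4 libraries, had 943 and 161 TPM in tie1 Homo, against 1174 and 847 TPM in tie1 WT/Het, so that the groups overlapped (-1.35, SE 0.92, limma adjusted p = 0.194). Its log2 fold change was -2.62 without tie1 Homo replicate 1 and -0.08 without tie1 Homo replicate 2. The beta subunit gene sec61b had 111 and 45.7 TPM in tie1 Homo, against 265 and 221 TPM in tie1 WT/Het (-1.75, SE 0.95, limma adjusted p = 0.102). Its log2 fold change was -2.38 without tie1 Homo replicate 1 and -1.11 without tie1 Homo replicate 2. The pore-forming alpha subunit gene sec61a1 had 11.9 and 19.8 TPM in tie1 Homo, against 54.1 and 59.8 TPM in tie1 WT/Het (-1.82, SE 0.81, limma adjusted p = 0.0497). Of the role only sec61a1 was called, at the edge of the threshold, and its call was lost without any 1 of the libraries (adjusted p from 0.0903 without tie1 Homo replicate 2 to 0.201 without tie1 WT/Het replicate 1; 0.110 without tie1 Homo replicate 1 and 0.135 without tie1 WT/Het replicate 2). The ratio of sec61g to sec61b within a library was 8.48 and 3.52 in tie1 Homo, against 4.43 and 3.84 in tie1 WT/Het. Neither sec62 nor sec63, which serve entry after translation, separated the groups (limma adjusted p = 0.468 and 0.746). All 6 genes of the role were negative on the deposited scale and 4 of 6 after quantile normalization.

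Of the 6 protein genes of the signal recognition particle, 2 were called lower and 1 higher. The gene srp54, whose product binds the signal sequence, had 92.7 and 14.2 TPM in tie1 Homo, against 177 and 141 TPM in tie1 WT/Het (-2.08, SE 0.91, limma adjusted p = 0.0478). Without tie1 Homo replicate 2 its log2 fold change was -0.77 (limma adjusted p = 0.353), and the call was also lost without tie1 WT/Het replicate 1 (0.308) or replicate 2 (0.172). The products of srp9 and srp14 form the heterodimer that slows translation. Their transcripts had unlike values. The gene srp9 had 14.2 and 8.63 TPM in tie1 Homo, against 35.9 and 51.0 TPM in tie1 WT/Het (-1.86, SE 0.76, limma adjusted p = 0.0368). For srp14 the values were 179 and 36.1 TPM in tie1 Homo and 155 and 163 TPM in tie1 WT/Het, with overlapping groups (-0.97, SE 0.94, limma adjusted p = 0.365). The log2 fold change of srp14 was -2.11 without tie1 Homo replicate 1 and 0.17 without tie1 Homo replicate 2. The call of srp9 was lost without any 1 library, with adjusted p from 0.0505 without tie1 Homo replicate 1 to 0.287 without tie1 Homo replicate 2 (0.159 without tie1 WT/Het replicate 1 and 0.116 without tie1 WT/Het replicate 2). The row called higher, srp68, had 7.01 and 12.1 TPM in tie1 Homo and 3.34 and 3.38 TPM in tie1 WT/Het, under the limit throughout. It was not called without any 1 library (0.0835 to 0.429). After quantile normalization 4 of the 6 genes were negative.

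Of the 5 protein disulfide isomerase genes with a pdia name, 0 passed the test. On the deposited scale, under median-of-ratios rescaling and after quantile normalization 4 of the 5 were negative. After quantile normalization pdia4 turned positive (0.65) and pdia2 negative (-0.07). The glycoprotein-specific isomerase gene pdia3 had 72.9 and 55.1 TPM in tie1 Homo, against 226 and 158 TPM in tie1 WT/Het (-1.56, SE 0.94, limma adjusted p = 0.140). The gene pdia6 had 58.6 and 13.5 TPM in tie1 Homo, against 97.5 and 113 TPM in tie1 WT/Het (-1.85, SE 0.88, limma adjusted p = 0.066). Both genes separated the groups. Their log2 fold changes were -1.76 and -2.87 without tie1 Homo replicate 1, and -1.36 and -0.83 without tie1 Homo replicate 2. In pdia4 the groups overlapped, with 47.8 and 29.5 TPM in tie1 Homo and 33.9 and 66.5 TPM in tie1 WT/Het (-0.33, SE 0.85, limma adjusted p = 0.745). With pdia3 it was 1 of 2 pdia-named genes over the limit in all 4 libraries.

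The COPII coat buds cargo vesicles from the ER. Of its 12 genes 5 were over the background limit in both tie1 WT/Het libraries and 0 in both tie1 Homo libraries. The outer coat gene sec13, which also serves the nuclear pore, had 39.8 and 17.2 TPM in tie1 Homo, against 91.8 and 66.4 TPM in tie1 WT/Het (-1.54, SE 0.86, limma adjusted p = 0.114). The GTPase gene sar1b had 29.6 and 8.40 TPM in tie1 Homo, against 52.2 and 52.3 TPM in tie1 WT/Het (-1.65, SE 0.80, limma adjusted p = 0.0711). Of the paralogous inner coat genes, sec23b had 8.57 and 11.1 TPM in tie1 Homo, against 33.5 and 19.5 TPM in tie1 WT/Het (-1.30, SE 0.71, limma adjusted p = 0.103). Its paralog sec23a had 21.2 and 15.1 TPM in tie1 Homo, against 7.98 and 8.21 TPM in tie1 WT/Het (1.06, SE 0.66, limma adjusted p = 0.157). The order of the pair thus differed between the groups, with a ratio of sec23b to sec23a of 0.404 and 0.734 in tie1 Homo and of 4.20 and 2.38 in tie1 WT/Het. This ratio was looked at after the values were seen, and of the 4 tie1 Homo values of the pair only sec23a in replicate 1 was over the limit. The log2 fold change of sec23a was 0.87 after quantile normalization, 0.46 after background subtraction and -0.22 under median-of-ratios rescaling. For sec13 and sar1b the log2 fold changes were -2.12 and -2.50 without tie1 Homo replicate 1, and -0.96 and -0.80 without tie1 Homo replicate 2.

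The 4 COPII rows called higher, sec24d, sec31b, sec16b and sar1ab, were under the limit in all 4 libraries. For sec24d the values were 8.81 and 11.9 TPM in tie1 Homo and 2.33 and 3.78 TPM in tie1 WT/Het (1.5, SE 0.54, limma adjusted p = 0.0233). For sec31b they were 6.65 and 9.21 TPM in tie1 Homo and 1.61 and 3.19 TPM in tie1 WT/Het (1.42, SE 0.53, limma adjusted p = 0.0264). For sec16b, whose product organises ER exit sites, they were 5.8 and 9.81 TPM in tie1 Homo and 2.25 and 3.13 TPM in tie1 WT/Het (1.23, SE 0.53, limma adjusted p = 0.0444). After quantile normalization sec16b and sar1ab turned to -0.09 and -0.07. The TPM values of these rows lie close to the median of the silent genes of each library, and the 4 calls held in just 1 of the fits that left out a library, that without tie1 WT/Het replicate 2 (0.0179 to 0.0428). Without tie1 Homo replicate 1 their adjusted p-values were 0.1 to 0.152, without tie1 Homo replicate 2 0.322 to 0.402 and without tie1 WT/Het replicate 1 0.178 to 0.220. Of the 12 genes 4 were negative on the deposited scale, 8 under median-of-ratios rescaling and 9 after quantile normalization.

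Coatomer, the COPI coat of retrograde vesicles, had 7 genes among the members. All 7 were over the limit in both tie1 WT/Het libraries, and 3 were called lower. The gamma subunit gene copg2 had 20.4 and 11.5 TPM in tie1 Homo, against 60.2 and 99.7 TPM in tie1 WT/Het (-2.26, SE 0.83, limma adjusted p = 0.0251). The alpha subunit gene copa had 15.3 and 12.9 TPM in tie1 Homo, against 53.2 and 49.4 TPM in tie1 WT/Het (-1.80, SE 0.79, limma adjusted p = 0.0486). The beta subunit gene copb1 had 9.19 and 15.2 TPM in tie1 Homo, against 61.8 and 38.5 TPM in tie1 WT/Het (-1.96, SE 0.78, limma adjusted p = 0.0327). In these 3 genes the groups were apart by more than 2-fold between the nearest libraries. The call of copa was lost without any 1 library (adjusted p 0.0725 without tie1 Homo replicate 1, 0.240 without tie1 Homo replicate 2, 0.210 without tie1 WT/Het replicate 1 and 0.104 without tie1 WT/Het replicate 2). That of copg2 held without tie1 Homo replicate 1 alone and was 0.135, 0.152 and 0.109 without the others in the same order. That of copb1 held without tie1 WT/Het replicate 2 alone and was 0.0992, 0.0762 and 0.207 without the others.

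The other coatomer genes were not called, although copz1 also separated the groups. The epsilon subunit gene cope had 194 and 97.4 TPM in tie1 Homo, against 266 and 170 TPM in tie1 WT/Het, with overlapping groups (-0.62, SE 0.95, limma adjusted p = 0.574). The zeta subunit gene copz1 had 157 and 97.5 TPM in tie1 Homo, against 419 and 325 TPM in tie1 WT/Het (-1.57, SE 0.95, limma adjusted p = 0.146). Its paralog copz2 was the only gene of this role with a positive fold change on the deposited scale. It had 27.8 and 17.3 TPM in tie1 Homo and 12.9 and 15.0 TPM in tie1 WT/Het (0.62, SE 0.73, limma adjusted p = 0.459). Its log2 fold change was 0.83 after quantile normalization, 0.01 after background subtraction and -0.69 under median-of-ratios rescaling. The log2 fold change of copz1 was -1.91 without tie1 Homo replicate 1 and -1.22 without tie1 Homo replicate 2. The ratio of copz1 to copz2 was 5.66 and 5.65 in tie1 Homo, against 32.5 and 21.6 in tie1 WT/Het. It was chosen after the values were seen, and copz2 in tie1 Homo replicate 2 was under the limit. Within the role, 6 of 7 genes were negative on the deposited scale, 7 with median-of-ratios rescaling and 5 with quantile normalization.

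The remaining 6 rows entered through their sec-numbered names. The SNARE gene sec22bb was called lower, with 5.22 and 12.0 TPM in tie1 Homo and 55.2 and 12.5 TPM in tie1 WT/Het (-1.62, SE 0.70, limma adjusted p = 0.044). This rests on tie1 WT/Het replicate 1, without which the log2 fold change was -0.59 (limma adjusted p = 0.510), and it was also lost without tie1 Homo replicate 1 (0.254) or replicate 2 (0.141). Its paralog sec22ba had 28.9 and 11.8 TPM in tie1 Homo, against 6.84 and 34.5 TPM in tie1 WT/Het (0.23, limma adjusted p = 0.790). The lipid-binding gene sec14l1 had 15.5 and 23.0 TPM in tie1 Homo, against 6.96 and 33.4 TPM in tie1 WT/Het (0.26, limma adjusted p = 0.759). In both genes the tie1 WT/Het values enclosed the tie1 Homo values. The row sec22c was called higher (1.42, limma adjusted p = 0.0283) at 8.61 and 12.6 TPM in tie1 Homo, against 3.57 and 2.98 TPM in tie1 WT/Het, under the limit throughout, and not without any 1 library (0.0747 to 0.339).

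**Figure D3:**
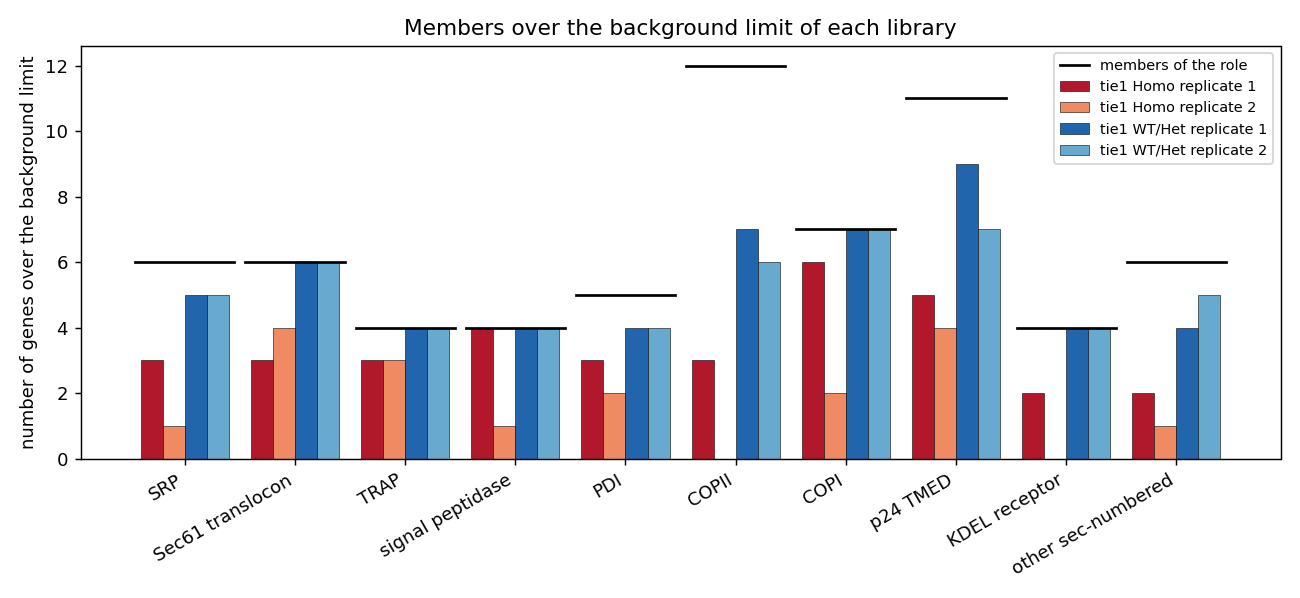
Number of members over the background limit of each library, by role, with a black line at the number of members of the role. TRAP keeps 3 of 4 genes in both tie1 Homo libraries, whereas COPII and the KDEL receptors have 0 in tie1 Homo replicate 2.

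Over the background limit lay 34 and 18 of the 65 members in tie1 Homo replicates 1 and 2, against 54 and 52 in tie1 WT/Het. Of the 50 members over it in both tie1 WT/Het libraries, 16 (32.0%) were over it in both tie1 Homo libraries and 14 (28.0%) in neither. For all rows over the limit in both tie1 WT/Het libraries the shares were 26.6% and 41.7%. The limit is higher in tie1 Homo, so a gene of the same TPM can be over it in tie1 WT/Het and under it in tie1 Homo.

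The tie1 Homo libraries differed from each other in these genes. Members summed to 0.678% and 0.332% of all listed TPM in tie1 Homo replicates 1 and 2, against 0.872% and 0.829% in tie1 WT/Het. After the median of the silent genes was subtracted from each library and negative values were set to 0, the shares were 0.901% and 0.452% in tie1 Homo, against 0.919% and 0.912% in tie1 WT/Het. The total in tie1 Homo replicate 1 was thus close to tie1 WT/Het, but the roles differed within it. In that library 3 roles (Sec61, SRP and p24) were above both tie1 WT/Het libraries and the other 7 were below both. The subtracted share of the KDEL receptors was 0.0117% and 0.00362% in tie1 Homo, against 0.0447% and 0.0409% in tie1 WT/Het, low in both mutant libraries. Both kdelr3 rows counted as 0 in tie1 Homo. In tie1 Homo replicate 2 no KDEL receptor row was over the limit, so the share there is within the background. Within the summed subtracted TPM of the 65 members the KDEL receptors made up 1.3% and 0.802% in tie1 Homo, against 4.86% and 4.48% in tie1 WT/Het. TRAP genes, also low in both mutant libraries, took 0.125% and 0.101% in tie1 Homo, against 0.148% and 0.154% in tie1 WT/Het. Sec61 genes took 0.271% and 0.1% in tie1 Homo, against 0.206% and 0.184% in tie1 WT/Het, and signal peptidase genes 0.0631% and 0.00870% in tie1 Homo, against 0.0936% and 0.0792% in tie1 WT/Het.

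**Figure D4:**
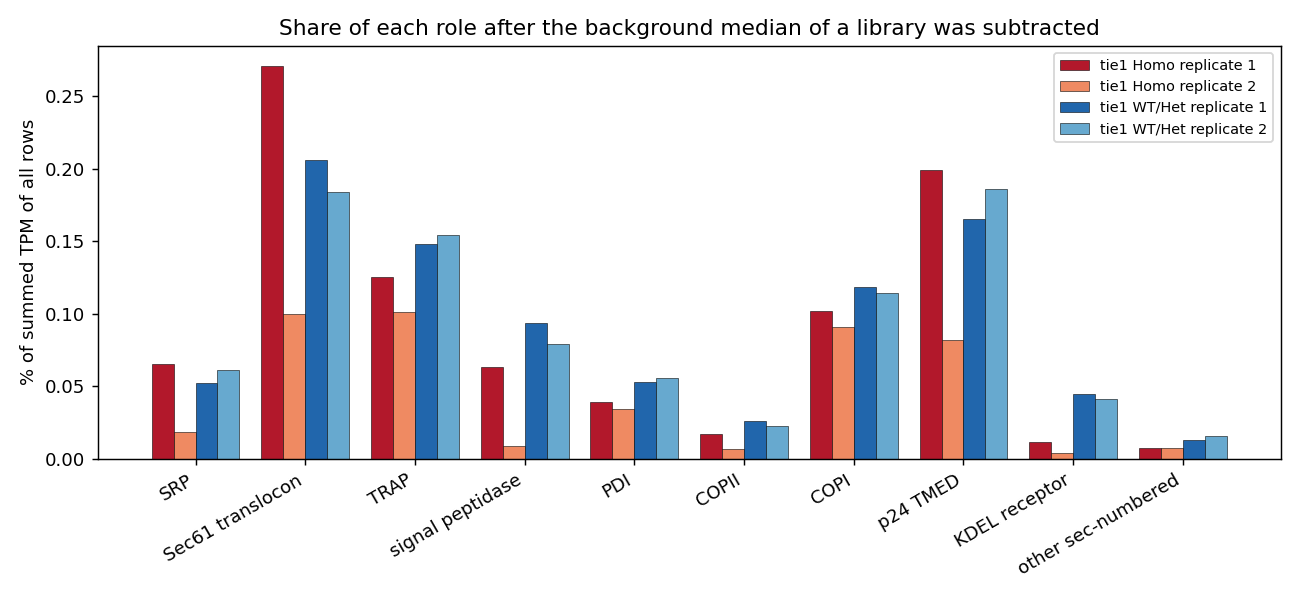
Summed TPM of each role as a percentage of the summed TPM of all rows, after the median of the silent genes was subtracted from each library and negative values were set to 0. For the Sec61, SRP and p24 roles tie1 Homo replicate 1 is at or above the tie1 WT/Het libraries, and for the KDEL receptors both tie1 Homo libraries (0.0117% and 0.00362%) are below them.

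Other genes of the pathway were described from 8 lists, of which 116 of 134 symbols were in the tables and 115 were tested. Of these, 26 were called lower and 2 higher, and the median log2 fold change was -1.01. The counts of each list are to be read beside the shares over all genes tested, 4.43% lower and 44.6% higher. Among all genes with a mean of 50 TPM or more, 33.0% were called lower, with a median log2 fold change of -1.67. The genes named from here on were chosen after their values were seen. Oligosaccharyltransferase, the enzyme that attaches N-glycans at the translocon, had 5 of 11 genes called lower and 0 higher, with a median of -1.92. Among them rpn2 had 11.8 and 12.1 TPM in tie1 Homo, against 205 and 114 TPM in tie1 WT/Het (-3.57, SE 0.86, limma adjusted p = 0.00245). Without tie1 WT/Het replicate 1 its adjusted p was 0.095. The catalytic subunit gene stt3a had 114 and 11 TPM in tie1 Homo, against 414 and 444 TPM in tie1 WT/Het (-3.53, limma adjusted p = 0.00628), with the call lost without tie1 WT/Het replicate 1 (0.159) or replicate 2 (0.051). Of the SRP receptor and TRAM genes 2 of 4 fell, and tram2 was the only listed gene called without any 1 library (limma adjusted p at most 0.0442). It had 6.58 and 10.3 TPM in tie1 Homo, against 125 and 83.4 TPM in tie1 WT/Het.

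ER chaperones and folding enzymes had 6 of 23 genes called lower and 0 higher. The chaperone gene hspa5 (BiP), whose product carries the retrieval signal bound by KDEL receptors, had 86.4 and 13.1 TPM in tie1 Homo, against 317 and 275 TPM in tie1 WT/Het (-3.08, SE 0.93, limma adjusted p = 0.0133). The call was lost without tie1 WT/Het replicate 1 (0.181) or replicate 2 (0.063). Of 12 regulators of the unfolded protein response 1 fell and 1 was called higher. The one that fell, xbp1, encodes a transcription factor known to activate secretory pathway genes. It had 67.4 and 18.4 TPM in tie1 Homo, against 793 and 502 TPM in tie1 WT/Het (-4.12, SE 0.95, limma adjusted p = 0.0015), and without tie1 WT/Het replicate 1 its adjusted p was 0.151. The sensor gene ern1 was called higher under the limit in all libraries, and its call was lost without tie1 Homo replicate 1 (0.113), tie1 Homo replicate 2 (0.310) or tie1 WT/Het replicate 1 (0.228). The transcription factor gene atf4b had 161 and 41.9 TPM in tie1 Homo, against 469 and 267 TPM in tie1 WT/Het (limma adjusted p = 0.055), and ddit3 had 23.5 and 11.7 TPM in tie1 Homo, against 58.8 and 57.4 TPM in tie1 WT/Het (limma adjusted p = 0.0601). The log2 fold changes of atf4b and ddit3 were -3.05 and -2.22 without tie1 Homo replicate 1, and -1.13 and -1.27 without tie1 Homo replicate 2.

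Membrane insertion genes of the EMC and GET routes had 3 of 16 called lower, COPII partners and export receptors 3 of 16, ER-Golgi tethers and SNAREs 5 of 25 with 1 higher, and COPI partners 1 of 8. The cargo receptor gene lman2 had 34 and 10.5 TPM in tie1 Homo, against 201 and 165 TPM in tie1 WT/Het (-3.19, limma adjusted p = 0.00872; 0.145 without tie1 WT/Het replicate 1). The Arf GTPase gene arf1l had 190 and 20.1 TPM in tie1 Homo, against 592 and 462 TPM in tie1 WT/Het (-3.04, limma adjusted p = 0.0152; 0.234 without tie1 WT/Het replicate 1 and 0.115 without tie1 WT/Het replicate 2). In contrast trappc4, a subunit of the tethering complex TRAPP, had 272 and 69.4 TPM in tie1 Homo, against 93.2 and 88.1 TPM in tie1 WT/Het, with overlapping groups (0.60, limma adjusted p = 0.585).

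Markers of the sorted cells were mostly lower in tie1 Homo, and those of other cells went in both directions. Over all genes tested, 4.43% were called lower and 44.6% higher. Of all genes with a mean of 50 TPM or more, 93.1% were negative and 33.0% were called lower. Most pan-endothelial markers were in that class. Of markers of other cells in it, lyz had 35.9 and 21.8 TPM in tie1 Homo, against 344 and 319 TPM in tie1 WT/Het, and actc1b also fell. In contrast mfap4 had 680 and 233 TPM in tie1 Homo, against 180 and 137 TPM in tie1 WT/Het, and apoa2 was also positive. The 15 pan-endothelial genes summed to 1739 and 513 TPM in tie1 Homo, against 4978 and 3998 TPM in tie1 WT/Het, with 11 called lower. The 9 venous and lymphatic genes summed to 1127 and 395 TPM in tie1 Homo, against 2855 and 2253 TPM in tie1 WT/Het, with 4 lower and 1 higher. Of secretory cell types, 10 notochord and cartilage markers summed to 351 and 258 TPM in tie1 Homo and 845 and 850 TPM in tie1 WT/Het (3 lower, 3 higher), and 11 fibroblast, tenocyte and mural markers to 249 and 223 TPM in tie1 Homo and 523 and 421 TPM in tie1 WT/Het (0 lower, 2 higher). The 8 hatching gland, pancreas and liver markers summed to 121 and 143 TPM in tie1 Homo and 76 and 135 TPM in tie1 WT/Het (0 lower, 2 higher). Sums of 12 muscle markers were 194 and 420 TPM in tie1 Homo and 475 and 1221 TPM in tie1 WT/Het (2 lower, 3 higher), and those of 8 erythroid markers were 1382 and 521 TPM in tie1 Homo and 3560 and 2986 TPM in tie1 WT/Het (2 lower, 3 higher). Myeloid markers (9) summed to 836 and 346 TPM in tie1 Homo and 697 and 645 TPM in tie1 WT/Het (3 lower, 2 higher), epidermal markers (9) to 208 and 141 TPM in tie1 Homo and 601 and 129 TPM in tie1 WT/Het (1 lower, 1 higher), and neural markers (9) to 63.7 and 89.6 TPM in tie1 Homo and 50.3 and 65.3 TPM in tie1 WT/Het (0 lower, 5 higher). The 5 neural markers called higher were under the background limit in every library. So were all markers called higher in the muscle, notochord and cartilage, myeloid and epidermal lists. The same held for the fibroblast, tenocyte and mural list, the hatching gland, pancreas and liver list, and 2 of 3 erythroid markers. The venous and lymphatic gene called higher, prox1a, was over the limit in neither tie1 Homo library. The neural gene gap43 was listed at 0 in all 4 libraries, and no other marker was listed at 0. The part of other cells and of the background level in the differences of the members was not tested, and in these bulk libraries fewer cells of a type and less RNA per cell cannot be told apart.

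**Figure D5:**
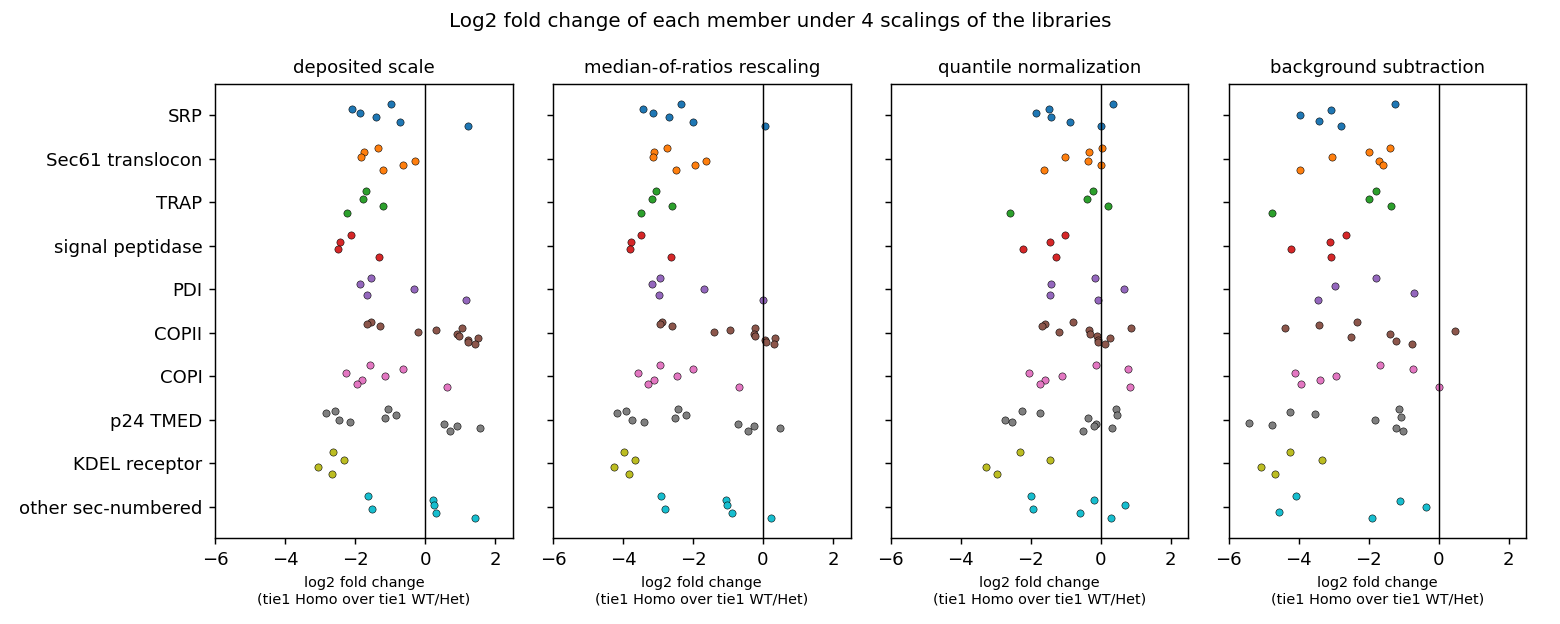
Log2 fold change (tie1 Homo over tie1 WT/Het) of each member, by role, in 4 panels: the deposited scale, median-of-ratios rescaling, quantile normalization and background subtraction, the last of which leaves 56 of the 65 members. The KDEL receptors are below 0 in all 4 panels (in the last, the sign of the kdelr3 rows comes with the filter), and the COPII rows cross 0 in each of the 4.

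The size of the shift depended on the scaling. The median log2 fold change of the members was -2.59 after median-of-ratios rescaling, where that of all genes was 0.03, and 57 of 65 members were negative. It was -0.50 after quantile normalization, with 0.05 for all genes and 49 of 65 members negative. After background subtraction it was -2.71 over the 56 members tested, with -1.40 for all 12485 genes tested. Of these 56, 20 were over the limit in tie1 WT/Het alone, so that their negative sign came with the filter. Of the 36 that were over it in a tie1 Homo library, 34 were negative, with a median of -1.98. The smallest limma adjusted p of a member was 0.179 with median-of-ratios rescaling, 0.363 with quantile normalization and 0.0861 with background subtraction. The value of 0.0861 belongs only to members over the limit in tie1 WT/Het alone, so the filter favoured their direction. Among members over the limit in a tie1 Homo library the smallest was 0.124 (tmed2).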

How the data were processed

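RNA-seq was performed on sorted endothelial cells (2 tie1 Homo and 2 tie1 WT/Het libraries), amplified with a SMART-Seq kit per the labels' protocols. Each library has its own table of TPM values, a unit the authors state in the file headers, and all share 29027 rows. Trim Galore 0.6.6, cutadapt 2.8, HISAT2 2.2.1, SAMtools 1.7, StringTie 2.1.4 and GRCz11 are named in the submitters' processing notes. The listed TPM summed to 602394 and 481065 in tie1 Homo replicates 1 and 2, against 813042 and 736606 in tie1 WT/Het. The scale thus also covers features not used here, with a larger part in tie1 Homo. The fit on the deposited scale did not correct for this difference. Groups and replicate numbers came from the titles.

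On the log2(TPM + 1) scale, limma 3.58.1 (R 4.3.3) compared the groups with no covariate for each row averaging 1 TPM or more, and its eBayes step used a trend on intensity. All p-values are two-sided, with Benjamini-Hochberg adjustment over 28301 genes and a threshold of 0.05. With 2 residual degrees of freedom, moderation replaced each gene's own variance by the trend, so p-values do not measure the spread of a single gene, and an exact permutation test of 2 against 2 cannot go below 0.333. The code was tested on simulated data. Background subtraction removed the median of the 331 silent genes, set negative values to 0 and tested genes over the limit in at least 1 library.

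Members, roles, lists and silent genes were chosen with earlier results of these data known. Values are given for the 3 most abundant members per role, up to 6 called members in each direction with separated groups and a mean of at least 5 TPM in the higher group, and any member with a positive fold change over the limit in both tie1 Homo libraries. Members named beyond this were chosen after their values were seen. No sequence was printed, because no sequence table was used here.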

Additional observations from a re-analysis of the deposited data

How the results depend on the processing

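The count of 19 members called lower was within 1.5 times under pseudocounts of 0.1 and 5, with no filter and with a mean TPM of at least 5. Over all genes tested, these fits called 4.28% to 4.98% lower. The count was 0 under median-of-ratios rescaling, quantile normalization and background subtraction, where 0 of all genes tested were called in either direction. With no intensity trend it was 29 (44.6%, against 7.02% of all genes tested). The count of 7 called higher was 0 under the same 3 scalings. It was 4 with no filter (6.15%, against 40.9% of all genes tested) and 4 with a pseudocount of 0.1 (6.15%, against 41.2%). With no intensity trend it was 2 (3.08%, against 28.6%). Leaving out 1 library gave 3 to 21 called lower and 0 to 6 called higher. Separated members that were lower numbered 24 to 46 under all alternatives. The 43 with background subtraction include members over the limit in tie1 WT/Het alone, which that filter favours as lower. With 1 library left out, groups separate more easily. Shares over all genes are not given for separated members under the alternatives, so these counts do not measure robustness. Those that were higher numbered 0 under median-of-ratios rescaling, quantile normalization, background subtraction and a pseudocount of 5, and 7 to 13 with 1 library left out. The log2 ratio of the member share of listed TPM was -0.75, and -0.23 after quantile normalization. It was -1.36 to -0.33 when 1 library was left out, the least without tie1 Homo replicate 2. For the 37 members named by rule, 319 of 475 alternative values stayed on the same side of the threshold. This count does not require an uncalled member to keep its sign. The signs of sec16b (-0.09) and sar1ab (-0.07), both called higher, turned after quantile normalization. So did those of several members that were not called, such as srp14 (0.34), sec61g (0.04) and ssr2 (0.21). Causes of these changes were not tested.

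Replicate numbers could not be shown to pair the libraries: deviations of same-numbered libraries correlated with r = 0.13 over 28301 genes. With the replicate block, 5 members were called lower (7.69%, against 2.35% of all genes) and 8 higher (12.3%, against 53.9%). TPM gives no read depth, so no counting interval could be set.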

Other observations

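Member levels within a library can be set side by side without any scaling between libraries. The median member stood at percentile 84.7 and 65.7 of all rows in tie1 Homo replicates 1 and 2, against 90.0 and 90.5 in tie1 WT/Het. Near the top of a library the percentile changed little even where TPM fell. The gene sec61g was at percentile 99.8 and 99.5 in tie1 Homo, against 99.7 and 99.7 in tie1 WT/Het. Its values were 943 and 161 TPM in tie1 Homo, against 1174 and 847 TPM in tie1 WT/Het. The gene ssr2 was at 97.1 and 99.0 in tie1 Homo, against 97.6 and 98.3 in tie1 WT/Het. Its values were 94.5 and 97.8 TPM in tie1 Homo, against 210 and 239 TPM in tie1 WT/Het. The alpha TRAP gene ssr1 was at percentile 19.1 and 8.06 in tie1 Homo, against 93.5 and 81.1 in tie1 WT/Het. Both tie1 Homo positions lie among rows below the background median of the library. These genes were chosen after their values were seen.

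Some ratios between subunits, also chosen afterwards, differed between the tie1 Homo libraries. Others did not, such as that of copz1 to copz2 (5.66 and 5.65 in tie1 Homo). The ratio of tmed10 to tmed2 was 7.10 and 0.545 in tie1 Homo, against 1.43 and 1.94 in tie1 WT/Het, and that of tmed9 to tmed10 was 2.27 and 10.6 in tie1 Homo, against 1.7 and 1.61 in tie1 WT/Het. In tie1 Homo replicate 2 both ratios rest on tmed10 at 11.3 TPM, close to the background median of that library (11.1) and under its limit. The tie1 WT/Het libraries were closer to each other in both ratios. Over the 65 members the median absolute log2 difference between replicates was 0.69 in tie1 Homo and 0.49 in tie1 WT/Het.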
